A study of Mus musculus with 8 samples.

Results

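The genes described here are 39 lysosome and autophagy genes of the mouse liver, selected as the rows of the deposited count table whose symbol is on a list of members. All 39 were found among the 33212 genes of the table, and all 39 were tested among 15291 genes with enough counts. They comprise 9 proteases, 10 glycosidases and sulfatases, 5 genes of lipid handling and 4 membrane genes of the lysosome, the regulator Tfeb, 6 genes of the LC3 and GABARAP proteins and their receptor, and 4 genes of the autophagy machinery.

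Liver RNA was sequenced from 4 Nnmt KO mice and 4 control mice, with 1 library per mouse. The Nnmt KO mice, labelled Nnmt LKO, were Alb-Cre::Nnmt flox/flox, in which the albumin promoter drives Cre so that deletion is directed to hepatocytes, and the control mice, labelled WT, were Nnmt flox/flox by the study's account. All were male C57BL/6 mice fed for 8 weeks on the MCD diet, a food without methionine and choline that damages the liver, so that no library comes from a mouse on ordinary food. The age of these mice is not given in the sources used here. The question was which liver transcripts differ when hepatocytes lack Nnmt, the enzyme that methylates nicotinamide with the methyl donor S-adenosylmethionine.

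The lysosome is the acidic compartment in which hydrolases degrade proteins, sugars and lipids, and autophagy is the route that wraps cell contents in a double membrane and delivers them to it. In the liver, autophagy supplies amino acids during fasting and clears lipid droplets and damaged mitochondria. Many lysosome and autophagy genes share a short DNA motif in their promoters that is read by TFEB and its relatives, which enter the nucleus when mTORC1 on the lysosome is inactive.

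Total counts per library ran from 75020072 to 87934362, and the smallest count of any member in any library was 435. The targeted gene Nnmt was at 31.8, 44.8, 68.9 and 83.0 CPM (TMM-scaled counts scaled to a common library total) in Nnmt KO libraries a to d and at 112, 224, 134 and 84.9 CPM in control libraries a to d. Every Nnmt KO library was below every control library, although KO library d and control library d nearly met. The log2 fold change of Nnmt, Nnmt KO minus control, was -1.28 ± 0.33 (standard error, edgeR's unadjusted p = 0.00256, adjusted p = 0.123). With DESeq2's Wald test its adjusted p was 0.00458. The study states that it checked the efficiency of the knockout by RT-qPCR. The 8 hepatocyte markers summed to between 81690 and 139100 CPM in every library, and the tissue label therefore matched its markers. In whole liver, fewer cells of a type and less RNA per cell cannot be told apart. The 17 macrophage and Kupffer cell markers summed to 2201 CPM in KO library a and 2171 CPM in control library d, when compared to between 974.9 and 1342 CPM in the other 6 libraries. The 8 T and B cell markers summed to between 5.45 and 6.33 CPM in Nnmt KO and between 3.26 and 4.14 CPM in control libraries, without overlap, and 2 of them had an unadjusted edgeR p under 0.05. Of 8 stellate cell and fibroblast markers 2, and of 6 cholangiocyte markers 1, were higher in Nnmt KO at that p, as were 5.45% of all tested genes. Their summed levels overlapped between the genotypes. Fitted changes were above 0 for all T and B cell, stellate cell and cholangiocyte markers and for 14 of 17 macrophage markers. They were above 0 for 4 of 8 hepatocyte, 2 of 7 endothelial and 2 of 4 neutrophil markers. Over all tested genes, 7995 of 15291 were above 0. None of the hepatocyte, macrophage, endothelial (7 genes) or neutrophil markers tested (4 of 6, with 1 at 0 in every library) had an unadjusted edgeR p under 0.05. The part of these cells in the results on lysosome and autophagy genes was not tested, beyond the values without KO library a and control library d that are given with them.

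The promoters of some members carry the letters CACGTG, the core of the motif that TFEB and its relatives read, and their sequences are shown as a description. Rows were picked by gene symbol, and how the symbols came onto the list is not stated. The shares below are therefore not a test. RefSeq promoters of GRCm38.p6, from 250 bases before to 50 bases after each start, were given for 33 members in 37 windows, and none was used for Ctsb, Ctsh, Galns, Npc1, Map1lc3a and Becn1. CACGTG, which reads the same on both strands, was found for 9 of the 33 members (27.3%), Atg7, Ctsa, Ctsd, Ctsl, Gaa, Glb1, Lamp1, Mcoln1 and Naglu. It was found for 8.09% of the 27025 genes with a window, which include genes not tested in these livers. The longer palindrome TCACGTGA, which contains CACGTG, was found for Ctsa, Ctsd and Mcoln1 (9.09%) and for 1.12% of all genes. The letters TGATGNAA, a core read by ATF4 with C/EBP proteins, were searched on both strands and were found for Ctsl and Manba (6.06%, and 4.51% of all genes). A match is a run of letters and not a measured binding site. The runs shown are those of Lamp1, which had the most copies, of the 3 genes with the longer palindrome, and of Naglu and Ctsl, whose levels are described further on, each with CACGTG in capitals.
Lamp1, chr8:13159088-13159160, plus strand: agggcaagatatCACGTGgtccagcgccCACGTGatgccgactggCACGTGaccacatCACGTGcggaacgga
Ctsa, chr2:164833758-164833786, plus strand: tgtCACGTGatgcagatgctCACGTGacc
Ctsd, chr7:142387908-142387937, minus strand: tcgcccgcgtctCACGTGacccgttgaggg
Mcoln1, chr8:3500462-3500491, plus strand: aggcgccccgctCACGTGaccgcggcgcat
Naglu, chr11:101070009-101070038, plus strand: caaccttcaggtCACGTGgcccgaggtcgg
Ctsl, chr13:64370739-64370768, minus strand: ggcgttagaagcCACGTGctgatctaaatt
By GENCODE's gene bounds, the Lamp1 run lay just before its gene, and the other 5 runs overlapped theirs, as the longest transcripts begin before the RefSeq start used. The 4 copies of Lamp1 began at positions -61 to -15 from its RefSeq start. Ctsd and Mcoln1 each had a further copy outside the run shown, at position -245 and at position -71. The log2 fold changes of the 9 genes with CACGTG lay between -0.35 and 0.02, and those of all 39 members between -0.35 and 0.34. Of the 9, 2 (Naglu and Ctsl) had an unadjusted edgeR p under 0.05, where 12.6% of all tested genes did. Sqstm1 (-0.32), Ctsc (-0.28) and Idua (0.34), whose windows lack the letters, were at that p as well. A relation between the letters and the fold changes was not tested.

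The members differed in level far more between genes than between genotypes. Per kb of exon, the mean over the 8 libraries ran from 1.7 CPM for Idua, which encodes the iduronidase of heparan and dermatan sulfate breakdown, to 467 CPM for Ctsd, the aspartic protease cathepsin D. Psap, the precursor of the saposins that present lipids to hydrolases, was at 440 CPM per kb, Ctsz at 366, the autophagy receptor Sqstm1 at 342, the membrane glycoprotein Lamp1 at 337 and the cysteine protease Ctsl at 313 CPM per kb. Tfeb itself was at 1.82 CPM per kb, above Idua alone. Among the proteins that coat the autophagosome, Gabarapl1 (179 CPM per kb) and Gabarap (135) were above Map1lc3a (31.3), Map1lc3b (27.8) and Gabarapl2 (20.7). The length is the union of all annotated exons, 7517 bases for Map1lc3b and 1844 for Gabarap. Undivided, Map1lc3b was at 205.5 CPM and Gabarap at 246.5 CPM in Nnmt KO (211.7 and 252.9 CPM in control). Ctsl (6489 bases) was at 1791 CPM and Ctsd (2351 bases) at 1016 CPM in Nnmt KO (2276 and 1182 CPM in control). The order per kb therefore rests in part on these lengths.

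**Figure D1:**
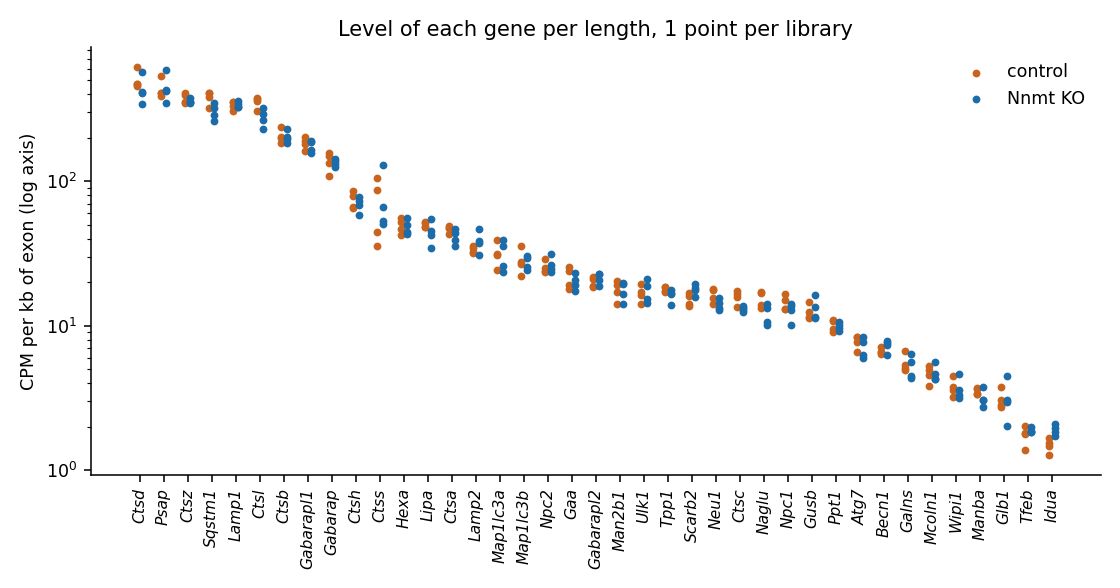
Level of the 39 members as CPM per kb of exon on a log axis, in order of their mean, with 1 point per library (orange, control; blue, Nnmt KO; 4 libraries each). Levels run from Ctsd (mean 467 CPM per kb) to Idua (1.7), and the 2 genotypes lie over each other for 38 members, Idua being the exception.

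The transcript levels of these genes differed little between Nnmt KO and control mice. No member had an adjusted p under 0.05 in edgeR's quasi-likelihood test (0 of 39, where 0.32% of all tested genes passed), and the smallest adjusted p was 0.305, for Ctsc. With DESeq2's Wald test, 0 of 39 members passed as well, and 3.56% of the genes with an adjusted p did. At an unadjusted p under 0.05, edgeR's test gave 5 members (12.8%), close to the 12.6% of all tested genes. Of these, 4 were lower in Nnmt KO (Ctsc, Ctsl, Naglu and Sqstm1, where 7.13% of all genes were lower at that p) and 1 was higher (Idua, where 5.45% were higher). With scaling by library total the balance turned, as 3 members were at that p, 1 lower (Ctsl) and 2 higher (Idua and Scarb2). With that scaling, 9.4% of all tested genes were at that p. DESeq2 gave the same 5 members at an unadjusted p under 0.05, where 14.2% of all genes were. With each library left out in turn, edgeR's count ran from 1 without KO library c to 7 without KO library a. Of all genes, 10.5% and 13.3% were at that p in these fits. Without KO library a, Ctsc, Ctsd, Lipa, Manba, Naglu and Sqstm1 were lower at that p and Lamp2 was higher. The libraries of the 2 genotypes did not overlap for Idua alone (1 of 39, or 2.56%), whereas 8.16% of all tested genes did not overlap.

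The fitted log2 fold changes ran from -0.35 for Naglu to 0.34 for Idua, with a median of -0.03 for the members and 0.02 for all tested genes, and 31 of 39 were within 0.2 of 0. The members' median turned to 0.03 with scaling by library total, where that of all genes was 0.07. Fitted changes were below 0 for 25 of 39 members (64.1%) and for 47.7% of all tested genes. The median standard error was 0.136. The 95% interval of the log2 fold change lay between -1 and 1, that is under a 2.0-fold change, for 39 of 39 members. It lay between -0.5 and 0.5 (1.41-fold) for 32 of 39. The 7 with wider or more distant intervals were Ctsc, Ctsd, Ctsl, Ctss, Idua, Naglu and Sqstm1. Differences inside these intervals could not be told from no difference with 4 mice per genotype, unless the interval left out 0.

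**Figure D2:**
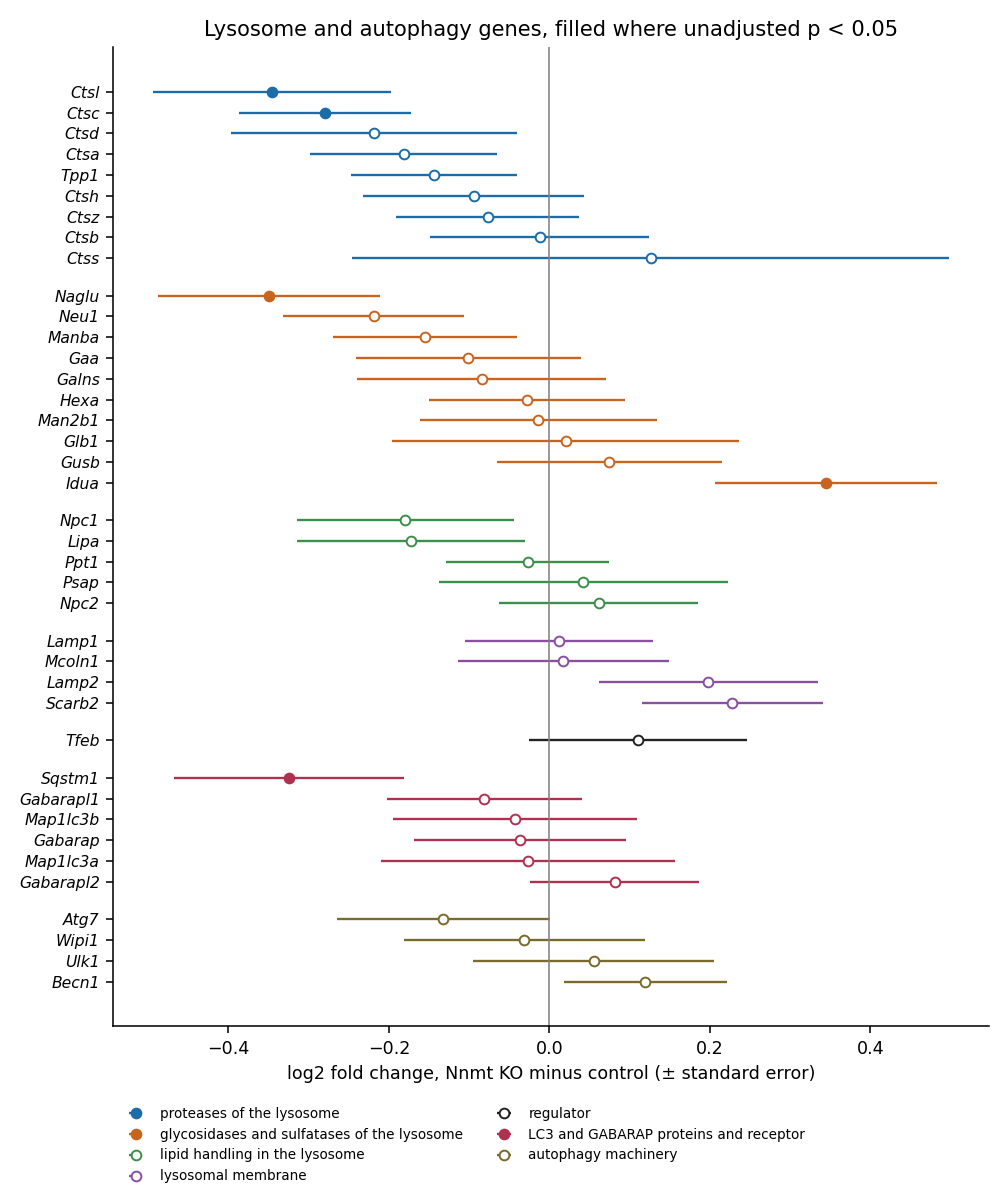
Log2 fold change of each member, Nnmt KO minus control, with its standard error from edgeR's fit (4 libraries per genotype), ordered within the 7 roles given by colour. Filled points mark the 5 members with an unadjusted p under 0.05, which lie between -0.35 and -0.28 (Naglu, Ctsl, Sqstm1, Ctsc) and at 0.34 (Idua), and the long bar of Ctss (standard error 0.37) shows its spread between libraries.

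Among the 9 proteases, the fitted change was below 0 for 8 (88.9%, and 47.7% of all tested genes). Ctsb among them turned to 0.05 when scaled by library total. The median log2 change was -0.14, and 2 of 9 had an unadjusted edgeR p under 0.05 (22.2%, and 12.6% of all tested genes). Among these 8, Ctsc, Ctsd and Tpp1 lie on distal chromosome 7 and were above 0 against the median of their own stretch, as given further on. Ctsl, a broad endopeptidase, was at 1490, 1894, 1714 and 2067 CPM in Nnmt KO libraries a to d. In control libraries a to d it was at 2318, 1985, 2384 and 2420 CPM. Control library b was below KO library d, and the other 3 control libraries were above every KO library. The means were 1791 ± 248 and 2276 ± 199 CPM (SD, n = 4 each), and the log2 fold change was -0.35 ± 0.15 (standard error, edgeR unadjusted p = 0.0397, adjusted p = 0.366). Across all alternatives its log2 fold change stayed between -0.42 and -0.22, and its unadjusted p was between 0.0102 and 0.146.

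Ctsc, the dipeptidyl peptidase that activates granule serine proteases of immune cells, was at 77.1, 79.3, 72.3 and 74.6 CPM in Nnmt KO and at 77.9, 96.2, 92.3 and 102 CPM in control libraries. Control library a was below KO library b, and otherwise the genotypes were apart. The log2 fold change was -0.28 ± 0.11 (standard error, edgeR unadjusted p = 0.0242). The other proteases had log2 fold changes of -0.22 for Ctsd, -0.18 for the carboxypeptidase Ctsa, -0.14 for the tripeptidyl peptidase Tpp1, -0.09 for the aminopeptidase Ctsh, -0.08 for Ctsz, -0.01 for Ctsb and 0.13 for Ctss, the cathepsin of antigen-presenting cells. None of these 7 had an unadjusted edgeR p under 0.05. Ctsd moved when single libraries were left out, as its log2 fold change was -0.38 without KO library a (edgeR unadjusted p = 0.0259), -0.12 without KO library d and -0.11 without control library d. Their libraries overlapped between the genotypes.

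**Figure D3:**
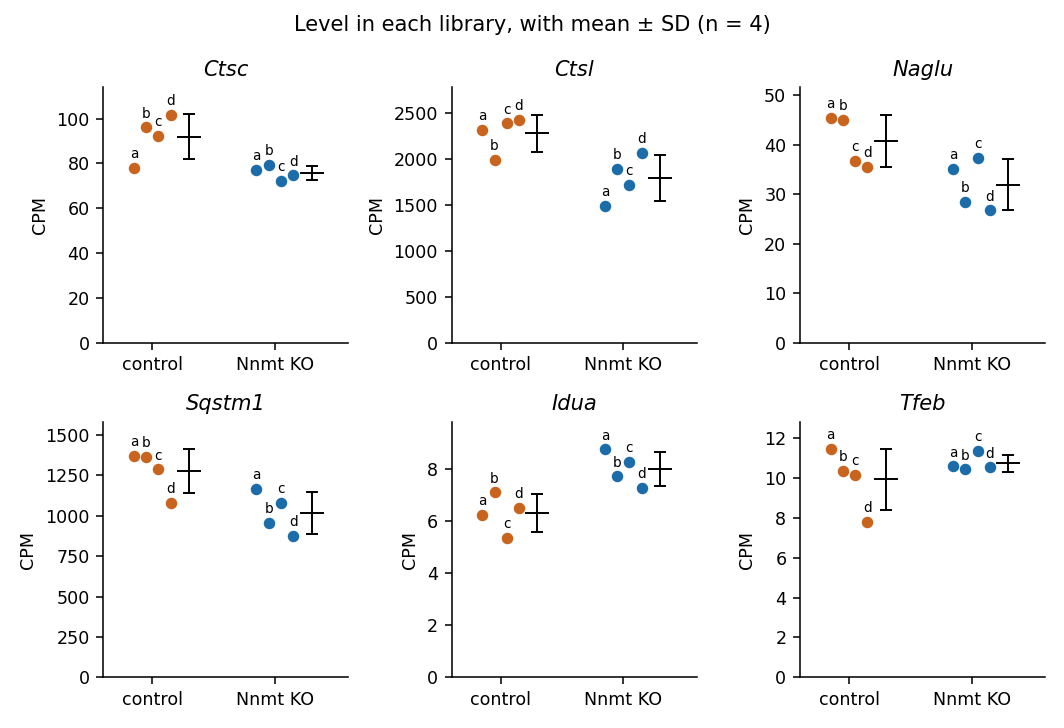
CPM of the 5 members with an unadjusted p under 0.05 and of Tfeb in each library (letters a to d; orange, control; blue, Nnmt KO), with the mean and SD of 4 libraries beside the points. Only the Idua panel has the 4 KO libraries (7.27 to 8.74 CPM) clear of the 4 control libraries (5.36 to 7.09 CPM).

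The 10 glycosidases and sulfatases take sugar chains and their sulfates apart. Of these, 7 had a fitted change below 0 (70%, and 47.7% of all tested genes), with a median log2 fold change of -0.06. An unadjusted edgeR p under 0.05 was seen for 2 (20%, and 12.6% of all tested genes), in opposite directions. Naglu, the glucosaminidase of heparan sulfate breakdown, was at 35.1, 28.4, 37.4 and 26.7 CPM in Nnmt KO and at 45.5, 45.0, 36.8 and 35.5 CPM in control libraries. Control libraries a and b were above all KO libraries, and control libraries c and d lay among them. The log2 fold change was -0.35 ± 0.14 (standard error, edgeR unadjusted p = 0.0273, adjusted p = 0.319).

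Idua was at 8.74, 7.71, 8.26 and 7.27 CPM in Nnmt KO and at 6.24, 7.09, 5.36 and 6.50 CPM in control libraries, without overlap. Its log2 fold change was 0.34 ± 0.14 (standard error, edgeR unadjusted p = 0.0294, adjusted p = 0.327). Idua (ENSMUSG00000033540) spans bases 108660331 to 108684557 of chromosome 5 (GRCm38, GENCODE), on the plus strand. It shares 141 exon bases with Slc26a1, a sulfate and oxalate transporter gene on the opposite strand, and 124 exon bases with Dgkq. Slc26a1 was at 184 CPM in Nnmt KO and 265 CPM in control mice (log2 fold change -0.53, edgeR unadjusted p = 0.00719), so that it lay far above Idua and differed in the other direction. Whether the counting used strand is not stated, and reads of the shared bases could have been given to either gene.

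The other 8 genes of this role lay between -0.22 and 0.07. Neu1, the sialidase, was at -0.22 (standard error 0.11), Manba at -0.16, the acid glucosidase Gaa at -0.10, Galns at -0.08, Hexa at -0.03, Man2b1 at -0.01, the galactosidase Glb1 at 0.02 and the glucuronidase Gusb at 0.07 on the log2 scale. None had an unadjusted p under 0.05, although Manba reached -0.25 without KO library a (edgeR unadjusted p = 0.0407), and 165 exon bases of Glb1 are shared with Tmppe on the same strand.

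For lipid handling, none of the 5 members had an unadjusted p under 0.05 (median log2 fold change -0.03). Lipa, the acid lipase that hydrolyses cholesteryl esters and triglycerides in the lysosome, was at 371, 289, 308 and 233 CPM in Nnmt KO and at 328, 353, 327 and 346 CPM in control libraries (log2 fold change -0.17, standard error 0.14). KO library a was above all control libraries and the other 3 KO libraries were below them. Without KO library a the log2 fold change of Lipa was -0.29 (edgeR unadjusted p = 0.0393), and without KO library d it was -0.07. Npc1 and Npc2, which together move cholesterol out of the lysosome, had log2 fold changes of -0.18 and 0.06. Psap was at 0.04 and the palmitoyl-protein thioesterase Ppt1 at -0.03.

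The 4 membrane genes had fitted changes above 0, although those of Lamp1 and Mcoln1 turned below 0 when single libraries were left out, and none reached an unadjusted p of 0.05 (median log2 fold change 0.11). Scarb2, the receptor that brings glucocerebrosidase to the lysosome, was at 111, 115, 122 and 99.1 CPM in Nnmt KO and at 86.1, 106, 88.5 and 101 CPM in control libraries (log2 fold change 0.23, standard error 0.11, edgeR unadjusted p = 0.0684). Lamp2, which serves in chaperone-mediated autophagy, was at 0.20 ± 0.14 on the log2 scale, with its highest value, 447 CPM, in KO library d, and was at 0.29 without KO library a (edgeR unadjusted p = 0.0342). Lamp1, with 4 copies of CACGTG, was at 0.01, and the calcium channel Mcoln1 was at 0.02.

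The regulator Tfeb was at 10.6, 10.4, 11.4 and 10.5 CPM in Nnmt KO and at 11.5, 10.4, 10.2 and 7.81 CPM in control libraries. Control libraries a, b and c lay just outside either end of the narrow range of the KO libraries, and control library d was the lowest of all. The log2 fold change was 0.11 ± 0.14 (standard error, edgeR unadjusted p = 0.433), with a 95% interval from -0.19 to 0.41. Without control library d it was 0.01, and without control library a it was 0.21. TFEB acts through its entry into the nucleus, which transcript counts do not measure.

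Of the LC3 and GABARAP proteins and their receptor, Sqstm1 alone had an unadjusted edgeR p under 0.05. That is 1 of 6 (16.7%, and 12.6% of all tested genes), and the median log2 fold change was -0.04. Sqstm1 encodes p62, which binds ubiquitin and LC3 and is itself degraded by autophagy. It was at 1165, 955.6, 1080 and 875 CPM in Nnmt KO and at 1369, 1365, 1288 and 1080 CPM in control libraries. Control library d was below KO library a, and the other 3 control libraries were above every KO library. The means were 1019 ± 129 and 1276 ± 136 CPM (SD, n = 4 each), and the log2 fold change was -0.32 ± 0.14 (standard error, edgeR unadjusted p = 0.0443, adjusted p = 0.383). The LC3 and GABARAP genes, whose products are joined to the autophagosome membrane, had log2 fold changes of -0.08 for Gabarapl1, -0.04 for Map1lc3b, -0.04 for Gabarap, -0.03 for Map1lc3a and 0.08 for Gabarapl2, with 95% intervals between -0.43 and 0.38.

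The 4 genes of the machinery had log2 fold changes of -0.13 for Atg7, the E1-like enzyme of LC3 conjugation, -0.03 for the phosphoinositide-binding Wipi1, 0.06 for the starting kinase Ulk1 and 0.12 for Becn1, a subunit of the class III PI3 kinase complex. None had an unadjusted edgeR p under 0.05.

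Some members were highest in the same 2 libraries as the macrophage markers, 1 of each genotype. These libraries differed in other markers too, as both also had the highest neutrophil sums (24.6 and 21.1 CPM). KO library a had the lowest hepatocyte sum (81690 CPM), the highest stellate cell (658 CPM) and cholangiocyte (279 CPM) sums and the largest TMM factor (1.21). Control library d had the highest endothelial sum (327 CPM). The part of each cell type was not tested. For 8 of 39 members (20.5%), KO library a and control library d were the 2 highest of the 8 libraries, as was the case for 9.19% of all tested genes. It was also the case for 12 of the 17 macrophage markers. The 2 libraries had been picked by the level of these markers, so that count follows in part from the choice. These 8 were Ctsb, Ctsd, Ctss, Glb1, Gusb, Hexa, Npc2 and Psap. Ctss was at 175 CPM in KO library a and 143 CPM in control library d, when compared to between 48.5 and 119 CPM in the other 6 libraries. Psap was at 1620 and 1456 CPM against 954.7 to 1163 CPM, and Ctsd at 1334 and 1451 CPM against 796.9 to 1107 CPM. In 7 of 39 members (17.9%, and 7.92% of all tested genes) the same 2 libraries were the lowest, namely Becn1, Ctsh, Gabarap, Gabarapl2, Map1lc3a, Map1lc3b and Mcoln1. When CPM was scaled by library total alone, 15 of 39 members were highest in these 2 libraries and 0 were lowest, with 21.6% and 1.14% of all tested genes, so the split between the 2 directions rests on the scaling.

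Without these 2 libraries, a fit added after the data were seen, 3 members had an unadjusted p under 0.05 (Lamp2, Naglu and Sqstm1) where 14.4% of all genes did, and none had an adjusted p under 0.05. Ctsc, Ctsl and Idua were not among the 3, with log2 fold changes of -0.22, -0.22 and 0.33 in that fit, against -0.28, -0.35 and 0.34 with all libraries. The relation between marker level and member level over all 8 libraries was not tested, because 2 libraries stood apart from the rest.

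**Figure D4:**
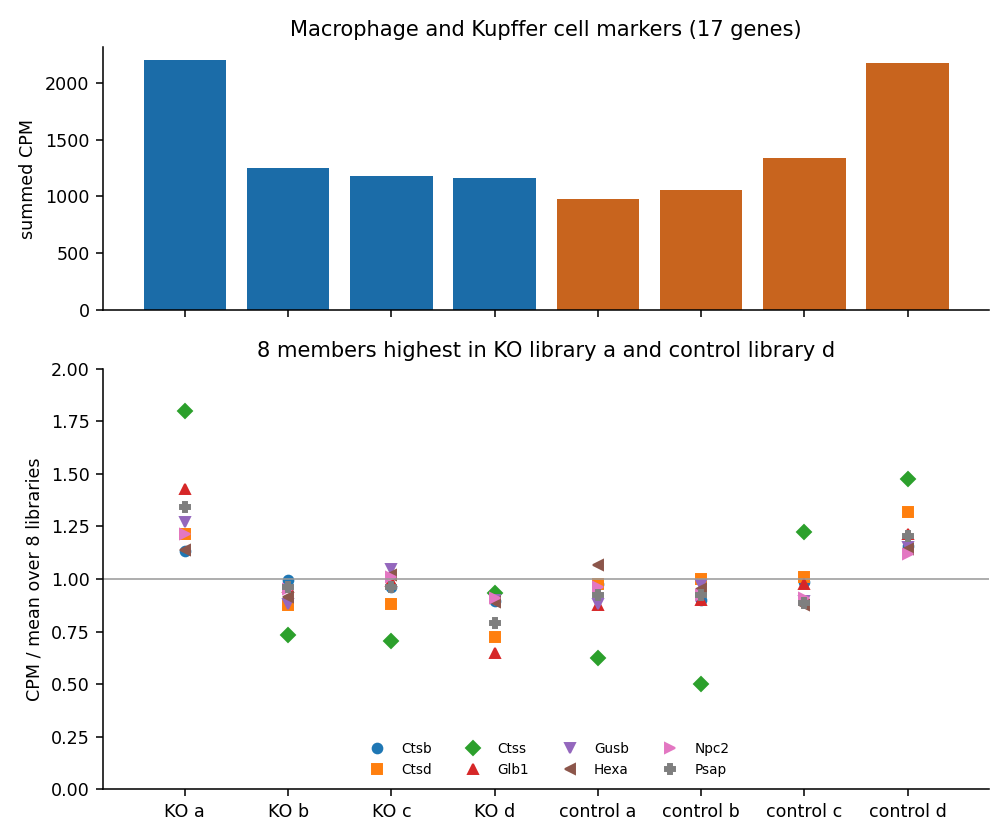
Top, summed CPM of 17 macrophage and Kupffer cell markers in each library (blue, Nnmt KO; orange, control). Bottom, CPM of the 8 members that were highest in KO library a and control library d, divided by the mean over 8 libraries; both genotypes hold 1 library with high markers (2201 and 2171 CPM), and Ctss spans the widest range.

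The other genes of the pathway were described with 122 further genes, of which 121 were tested and Lamp3 had 0 counts in every library. None had an adjusted p under 0.05 in edgeR's test, where 0.32% of all genes passed, and DESeq2 gave 2, Lamtor1 and Smpd1, where 3.56% passed. At an unadjusted p under 0.05 there were 19 genes (15.7%, and 12.6% of all genes), 11 lower and 8 higher in Nnmt KO. Over all tested genes, 7.13% were lower and 5.45% higher at that p, which is the background for the counts by list. The median log2 fold change was -0.02.

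By list, the V-ATPase, the proton pump that acidifies the lysosome, had 2 of 16 subunits higher and 0 lower at that p, led by Atp6ap2 (log2 fold change 0.37, edgeR adjusted p = 0.306) and Atp6v1d (0.23, edgeR adjusted p = 0.364). Of 26 other hydrolases and activators, 2 were lower and 2 higher, led by the acid sphingomyelinase Smpd1 (-0.50, edgeR adjusted p = 0.114) and the arylsulfatase Arsa (-0.41, edgeR adjusted p = 0.241). Of 15 other membrane and sorting genes, 1 was lower, Cln3 (-0.33, edgeR adjusted p = 0.332), followed by Tmem192 (-0.17, edgeR adjusted p = 0.467). Of 32 other autophagy core genes, 5 were lower and 0 higher, led by Uvrag (-0.37, edgeR adjusted p = 0.186) and the scramblase Tmem41b (-0.41, edgeR adjusted p = 0.2). Of 10 other receptors, 1 was lower, Tollip (-0.35, edgeR adjusted p = 0.243), and 1 higher, Retreg1, the receptor for autophagy of the endoplasmic reticulum (0.74, edgeR adjusted p = 0.221). Smpd1, Cln3, Uvrag, Tmem41b and Tollip, and Lamtor1 of the last list, lie on chromosome 7 beyond 75 Mb. There, 37.4% of all tested genes were lower at that p, as given further on.

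The last list, of TFEB relatives and of mTORC1 on the lysosome, had 2 of 22 genes lower and 3 higher. Lamtor1, which anchors the Ragulator complex to the lysosome, had the smallest p of all the pathway genes. It was at 52.2, 57.2, 59.8 and 56.3 CPM in Nnmt KO and at 85.1, 82.2, 72.5 and 82.4 CPM in control libraries, without overlap (log2 fold change -0.51, standard error 0.10, adjusted p = 0.0636 in edgeR's test). Flcn, folliculin, was at -0.45 (edgeR unadjusted p = 0.0315). Among the relatives of TFEB, Tfe3 had a log2 fold change of -0.09, Mitf of 0.22 and Tfec, which is low in these livers, of 0.60, and none of the 3 had an unadjusted p under 0.05.

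Many of the pathway genes that were lower lie on chromosome 7 beyond 75 Mb in GRCm38. Of 10 members and wider genes there, 10 had a fitted change below 0, and 7 of them were below the control with an edgeR p, unadjusted, under 0.05. Of the 150 on other chromosomes, 8 were lower and 9 higher. The stretch as a whole was low, as 418 of its 554 tested genes had a fitted change below 0, with a median log2 change of -0.28. Of these 554, 207 (37.4%) were lower at that p, against 5.85% of the tested genes on other chromosomes. The members there were Ctsc, Ctsd and Tpp1. Against the median of all genes in its own 25 Mb of the chromosome, the log2 fold change of Ctsc was 0.01, that of Ctsd 0.08 and that of Tpp1 0.09, so that all 3 lay above the median of their neighbours. Smpd1, Cln3, Uvrag, Tmem41b, Tollip, Lamtor1 and Bnip3 lie there too. Against the same median Lamtor1 was at -0.28, Smpd1 at -0.27, Tmem41b at -0.18, Uvrag at -0.08, Tollip at -0.05, Cln3 at -0.03 and Bnip3 at 0.13. The cause of the difference along this stretch was not tested.

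**Figure D5:**
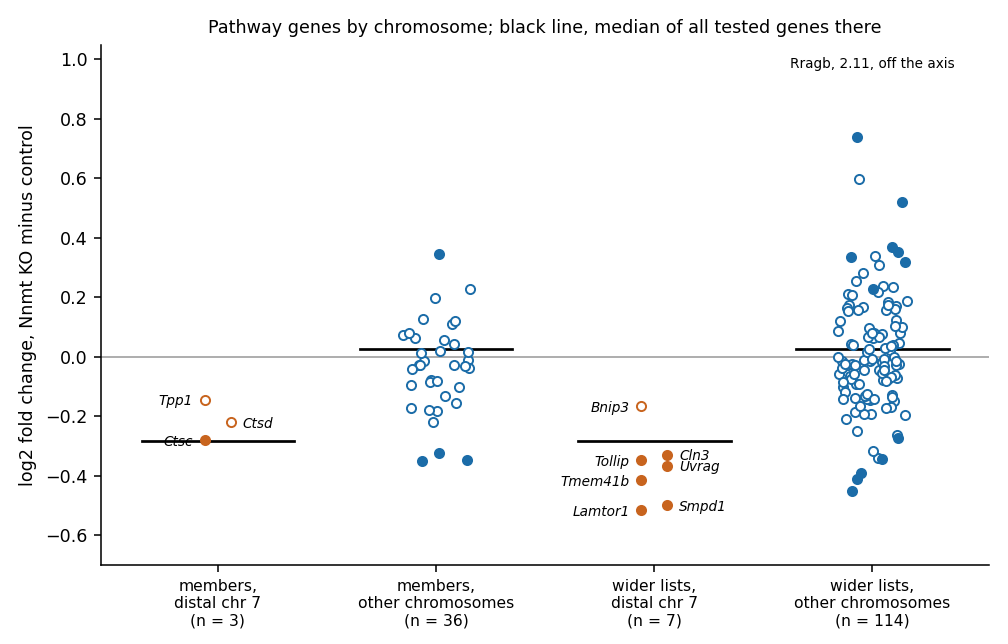
Log2 fold change, Nnmt KO minus control, of the members and of the wider pathway lists on chromosome 7 beyond 75 Mb (distal chr 7, orange) and on other chromosomes (blue), filled where the unadjusted p in edgeR's test was under 0.05. Black lines give the median of all tested genes in the same place, -0.28 and 0.03, and Rragb, at 2.11 with at most 0.394 CPM in any library, is off the axis.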

How the data were processed

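Liver RNA-seq of 4 Nnmt KO and 4 control mice on the MCD diet was used. The authors aligned the reads with HISAT2 and deposited raw counts, whole numbers for each gene. The submitters' processing notes name mm10 and StringTie as well, and the use of strand in counting is not stated. Column names give the genotype alone, and libraries were lettered within it. No pair of libraries of a genotype was a copy of 1 library (chi-square per degree of freedom 42.2 to 263). p-values measure the spread between 4 mice per genotype.

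Genes were filtered by filterByExpr (minimum count 10), scaled by TMM and tested with the quasi-likelihood test of edgeR 4.0.16 in R 4.3.3, with Benjamini-Hochberg adjustment over 15291 genes. Standard errors are those implied by the F statistic, and 95% intervals use the test's degrees of freedom. TMM factors ran from 0.876 to 1.21, and 3 counts stood for 0.0328 to 0.0418 CPM. In simulated data for 15291 genes with 200 changed by 1.5 on the log2 scale, edgeR called 159 changed and 5 unchanged genes, and DESeq2 called 167 and 19. Counts were drawn independently for each gene and library. The members' log2 fold changes lay between -0.35 and 0.34, and changes of that size were not simulated. Positions (for 99.1% of the tested genes) are those of GENCODE M21 on GRCm38. Levels per kb use the length of the union of all its exons of a gene.

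The roles, wider lists and markers were chosen with earlier results of these data known. How the members came onto their list is not stated. Members at an unadjusted p under 0.05 or without overlap, Tfeb and Sqstm1 are given per library, and each wider list by its 2 smallest p. Lipa, Scarb2, the Lamtor1 library values, the genes at the highest levels, the TFEB relatives, the neighbouring genes and the other wider genes of chromosome 7 were added after their values were seen. The alternatives were RLE size factors, library totals, DESeq2 1.42.0 (the study used DESeq2 and gives no version), no filter, at least 1 CPM in 4 libraries, each library left out, other thresholds and the median of the chromosome stretch. A fit without KO library a and control library d was added after the data were seen.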

Additional observations from a re-analysis of the deposited data

Results flagged for a closer look

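A library that stood far from the other 3 of its genotype was looked for in 80 groups of 4 libraries (39 members and Nnmt in both genotypes), of which chance alone would single out about 4. It was found in 4. Ctsd was at 1451 CPM in control library d, when compared to between 1072 and 1107 CPM in the other control libraries, and Psap was at 1456 CPM in the same library against 1070 to 1117 CPM. That library also had the highest macrophage marker level of the control libraries (2171 CPM), and the part of these markers was not tested. Ctsz was at 541.1 CPM in Nnmt KO library c against 500.7 to 506.6 CPM in the other KO libraries. Tfeb was at 11.37 CPM in the same library against 10.43 to 10.59 CPM.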

How the results depend on the processing

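No member passed an adjusted p of 0.05 in any of the 14 alternative fits, nor at an adjusted p under 0.1. Of 39 members, 22 kept the sign of their log2 fold change in all 14 fits, among them Ctsc, Ctsl, Naglu, Sqstm1, Idua and Tfeb, and 17 reversed in at least 1. Subtraction of the stretch median was made for Ctsc, Ctsd and Tpp1 alone, and all 3 reversed. With each library left out in turn, the log2 fold changes of the members that reversed ran from -0.080 to 0.062 for Ctsb, -0.27 to 0.41 for Ctss, -0.033 to 0.055 for Lamp1, -0.19 to 0.031 for Galns, -0.20 to 0.18 for Glb1, -0.046 to 0.16 for Gusb, -0.10 to 0.035 for Hexa, -0.11 to 0.074 for Man2b1, -0.032 to 0.13 for Npc2, -0.063 to 0.028 for Ppt1, -0.12 to 0.15 for Psap, -0.081 to 0.097 for Mcoln1, -0.15 to 0.12 for Map1lc3a, -0.14 to 0.10 for Map1lc3b, -0.13 to 0.047 for Gabarap, -0.054 to 0.15 for Ulk1 and -0.16 to 0.063 for Wipi1. The members that also or only reversed under another setting did so at 0.047 for Ctsb, 0.038 for Hexa, 0.053 for Man2b1, 0.032 for Ppt1, 0.015 for Map1lc3a, 0.021 for Map1lc3b, 0.026 for Gabarap and 0.045 for Wipi1 with scaling by library total, at 0.0026 for Ctsb and 0.0014 for Man2b1 with at least 1 CPM in 4 libraries, at 0.0079 for Ctsb, -0.072 for Glb1, 0.026 for Man2b1, 0.0064 for Ppt1 and -0.0057 for Mcoln1 without KO library a and control library d, and at 0.0093 for Ctsc, 0.078 for Ctsd and 0.090 for Tpp1 after subtraction of the median of their 25 Mb stretch of the chromosome. Scaling by library total moved the median of all genes from 0.02 to 0.07 and that of the members from -0.03 to 0.03.

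The 5 members at an unadjusted p under 0.05 became 3 with scaling by library total (Ctsl lower, Idua and Scarb2 higher), 3 without KO library a and control library d, 0 at a p under 0.01, and 1 to 7 with each library left out in turn. The share of all genes moved as well, from 12.6% to 9.4%, 14.4%, 4.51%, and 8.08% to 14.1%, in the same order. The count was 1 (Naglu) without KO library c, 2 (Ctsc and Idua) without KO library b or without control library a, 3 without control library b (Ctsl, Idua and Scarb2), c (Ctsc, Naglu and Neu1) or d (Idua, Naglu and Sqstm1), and 7 without KO library a. The 1 member whose libraries did not overlap became 2 with scaling by library total. The share of all tested genes without overlap is not given for that scaling, so the 2 cannot be set against it. For the wider lists, the 19 genes became 9 to 20 over the 14 fits, with 9 without control library a or b and 20 with DESeq2. In these fits, 8.08%, 10.2% and 14.2% of all genes had an unadjusted p under 0.05. Lamtor1 also passed an adjusted p of 0.05 with at least 1 CPM in 4 libraries, and Retreg1 did without KO library a (adjusted p = 0.0454). For Nnmt, DESeq2 gave a log2 fold change of -1.28 (adjusted p = 0.00458). The cause of these changes was not tested. No paired analysis was possible because the columns of counts carry no mouse number.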
